A study of Mus musculus with 36 samples.

Results

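Carboxylesterases are serine hydrolases of the endoplasmic reticulum that split ester, thioester and amide bonds, and they act both on drugs and on stored lipids such as triglycerides, cholesteryl esters and retinyl esters. In the mouse most of them lie in gene clusters that arose by tandem duplication, and the enzymes of the Ces1 type are known in liver, fat and kidney as lipid hydrolases. In mouse kidney they are known mainly from the proximal tubule, the segment that reabsorbs most of the filtered solutes. The 6 genes described here, Ces1d, Ces1e, Ces1f, Ces1g, Ces2c and Ces2e, were taken by symbol from both deposited tables, out of 19 carboxylesterase rows and 24066 symbols that occur once. They were chosen by the diet differences and levels already known from these same libraries, so their differences between diets are given as a description, with no test. The tests below concern time of day.

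Libraries came from kidneys of male wild-type C57BL/6J mice on a high-fat diet and of mice of the same strain on normal chow. Feeding was ad libitum from 6 weeks of age in a cycle with equal light and dark phases of 12 h, and the age label at harvest is 16 weeks. Time is in hours after the lights came on (zeitgeber time, ZT). At each of ZT0, 4, 8, 12, 16 and 20 there were 3 libraries of each diet, 36 in all, each bearing the replicate number of its title. Whole kidney was used, so fewer cells of a type and less RNA per cell cannot be told apart.

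The Ces1 cluster holds 8 annotated genes within 359.5 kb of chromosome 8, and the Ces2 cluster 8 within 287.2 kb of the same chromosome (GENCODE M21 annotation of GRCm38, which is mm10). Ces1d spans chr8:93166068-93197838, Ces1e chr8:93201218-93229619, Ces1f chr8:93256236-93279747 and Ces1g chr8:93302369-93337308, all on the minus strand. Ces2c spans chr8:104847068-104854483 and Ces2e chr8:104926260-104934672 on the plus strand. All 6 are annotated as protein coding, and values cover the whole transcript. Promoters of 4 of the 6 members, Ces1e, Ces1g, Ces2c and Ces2e, were matched and scanned, and Ces1d and Ces1f were not scanned. Ces1e and Ces1g are shown as the scanned members of the Ces1 cluster, and their levels differed between the diets by very different amounts. Each sequence runs 5′ to 3′ on the gene's strand from 250 bases before to 50 bases after the RefSeq start (GRCm38.p6), at chr8:93337160-93337459 for Ces1g and at chr8:93229570-93229869 for Ces1e. Capitals mark matches to the letters TTATGTAA (the D-box bound by the clock output factors DBP, TEF and HLF), TATAAA and CCAAT on either strand.
Ces1g: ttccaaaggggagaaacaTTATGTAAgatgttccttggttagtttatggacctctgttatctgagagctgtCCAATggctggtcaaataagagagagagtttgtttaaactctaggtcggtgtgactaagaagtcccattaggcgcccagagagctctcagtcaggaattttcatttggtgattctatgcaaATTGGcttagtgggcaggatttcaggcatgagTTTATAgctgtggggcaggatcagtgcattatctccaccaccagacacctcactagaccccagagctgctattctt
Ces1e: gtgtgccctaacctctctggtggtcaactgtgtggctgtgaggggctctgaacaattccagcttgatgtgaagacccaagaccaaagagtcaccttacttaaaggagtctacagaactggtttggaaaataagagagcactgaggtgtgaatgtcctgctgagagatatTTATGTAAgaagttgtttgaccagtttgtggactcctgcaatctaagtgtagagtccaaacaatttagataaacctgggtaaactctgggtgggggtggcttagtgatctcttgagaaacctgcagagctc
The D-box letters stood 232 bases before the start in Ces1g and 81 bases before it in Ces1e, and 0.938% of all 32851 windows in the promoter table hold them. For Ces1g the GENCODE gene begins upstream of the RefSeq start, at chr8:93337308 inside the window. Distances for Ces1g are thus from the RefSeq start only, and its TATAAA match lies within the GENCODE gene. Ces1g also had TATAAA on the opposite strand 26 bases before the start and CCAAT on each strand, letters held by 13.6% and 37.4% of windows. No match to CACGTG (7.15% of windows) or to AGGTCA (16.3%) was found in either. Ces2c held CCAAT alone and the Ces2e window none of these letters. The motifs were picked with the sequences in view, none of them overlaps another in these windows, and a match is a description, not a binding site.

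In level the abundant genes were Ces1f, Ces1d, Ces2c and Ces1e, in that order under each diet. Values are FPKM, fragment counts scaled to transcript length and to library size, so genes can be compared with each other. Ces1f, a lipid hydrolase also named TGH-2, averaged 561 ± 55.9 FPKM under the high-fat diet and 490 ± 65.0 FPKM under normal chow (SD, n = 18 each), ranking 172nd and 210th of the 11144 genes that averaged 1 FPKM or more. Ces1d, the triacylglycerol hydrolase that mobilises stored triglyceride, averaged 343 ± 74.4 and 246 ± 43.0 FPKM under the high-fat diet and normal chow. Ces2c, a hydrolase of the CES2 type, averaged 185 ± 24.5 FPKM under the high-fat diet and 166 ± 24.5 FPKM under normal chow. Ces1e, the egasyn that holds β-glucuronidase in the endoplasmic reticulum, averaged 62.3 ± 7.09 FPKM under the high-fat diet and 57.0 ± 6.03 FPKM under normal chow. Each of these exceeded the next in 18 of 18 libraries of either diet, except that Ces1d exceeded Ces2c in 17 of 18 under normal chow.

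The order of the scarce members differed between diets. Ces1g, whose loss in mice leads to fatty liver and high blood lipids, averaged 2.91 ± 1.13 FPKM under the high-fat diet and 13.9 ± 7.49 FPKM under normal chow (SD, n = 18 each). Ces2e, a second gene of the CES2 type, averaged 5.18 ± 0.844 FPKM under the high-fat diet and 6.23 ± 1.07 FPKM under normal chow. Ces2e exceeded Ces1g in 17 of 18 high-fat libraries, and Ces1g exceeded Ces2e in 16 of 18 chow libraries.

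**Figure D1:**
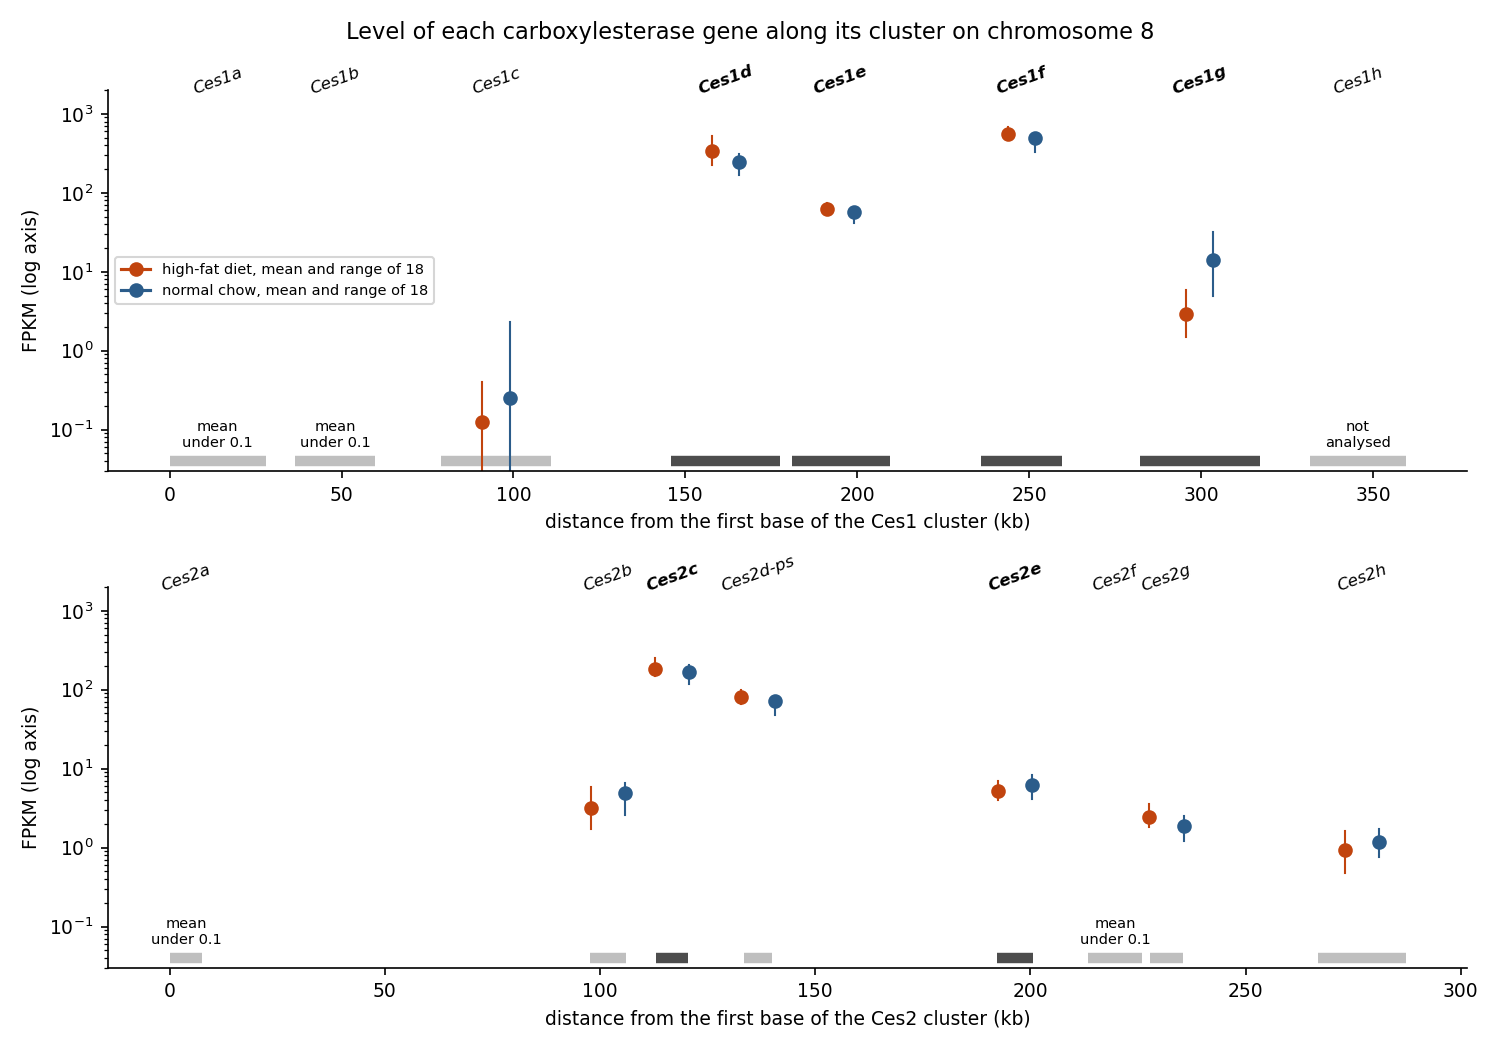
Mean FPKM (points, log axis) and range over 18 libraries (lines) per diet for each gene of the Ces1 and Ces2 clusters, placed by distance in kb from the first base of the cluster, with genes as bars and the 6 described genes in bold and dark grey. Lines that meet the bottom of the axis reach values below it. Ces1h had no value here and is marked as not analysed. Among the Ces1 genes with values, Ces1f, Ces1d and Ces1e carry nearly all of the signal. Ces1g comes next, with 0.229% of the family sum under the high-fat diet and 1.37% under normal chow. Of these 4 genes Ces1g alone is several-fold lower under the high-fat diet.

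Together the 6 genes made up 92.9 ± 0.842% of the summed FPKM of all carboxylesterase rows under the high-fat diet and 92.3 ± 0.745% under normal chow (SD, n = 18 each). The family sum was 1247 ± 134 FPKM under the high-fat diet and 1060 ± 120 FPKM under normal chow. Within it Ces1f held 45.1 ± 2.77% under the high-fat diet and 46.1 ± 2.23% under normal chow. The share of Ces1d was 27.4 ± 3.89% under the high-fat diet and 23.2 ± 2.87% under normal chow, and that of Ces1g was 0.229 ± 0.0719% and 1.37 ± 0.917%.

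Ces1g was lower under the high-fat diet at all 6 times. Under the high-fat diet it was at 3.19, 1.501 and 1.93 FPKM at ZT0, at 2.06, 1.82 and 2.61 FPKM at ZT4 and at 3.09, 4.17 and 1.83 FPKM at ZT8. High-fat values in darkness were 5.83, 1.58 and 2.88 FPKM at ZT12, 3.71, 4.28 and 3.69 FPKM at ZT16 and 2.84, 3.11 and 2.18 FPKM at ZT20. The high-fat libraries thus stayed low, between 1.501 and 5.83 FPKM, with 1 at ZT12 standing above the rest. Normal chow gave 18.2, 24.04 and 9.60 FPKM at ZT0, 10.1, 32.3 and 19.1 FPKM at ZT4 and 23.8, 8.997 and 10.1 FPKM at ZT8. The remaining chow values were 8.73, 5.11 and 6.58 FPKM at ZT12, 19.6, 9.81 and 15.6 FPKM at ZT16 and 13.0, 11.4 and 4.87 FPKM at ZT20. Chow libraries of the same time differed widely, and the coefficient of variation over 18 libraries was 39.0% under the high-fat diet and 53.7% under normal chow. The other members had 9.97 to 21.7% under the high-fat diet and 10.6 to 17.5% under normal chow.

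Of the high-fat libraries 17 of 18 lay below every chow library, a separation seen for 0.144% of the 11144 genes. The exception was ZT12 replicate 2, at 5.83 FPKM against the chow minimum of 4.87 FPKM. At single times all 3 high-fat libraries were below all 3 chow libraries at 5 of 6 times, as for 0.808% of genes, with an overlap at ZT12. These shares use the values that chose the gene and show nothing further about it. On the scale of log2(FPKM + 0.5) the high-fat diet minus normal chow difference was -1.98 ± 0.17 (SE), which is 3.94-fold lower and the sixth lowest of all genes. A fall of at least 1 log2 was estimated for 0.359% of genes. The difference was -2.67 ± 0.42 at ZT0 and -2.84 ± 0.42 at ZT4, and -1.01 ± 0.42 at ZT12.

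**Figure D2:**
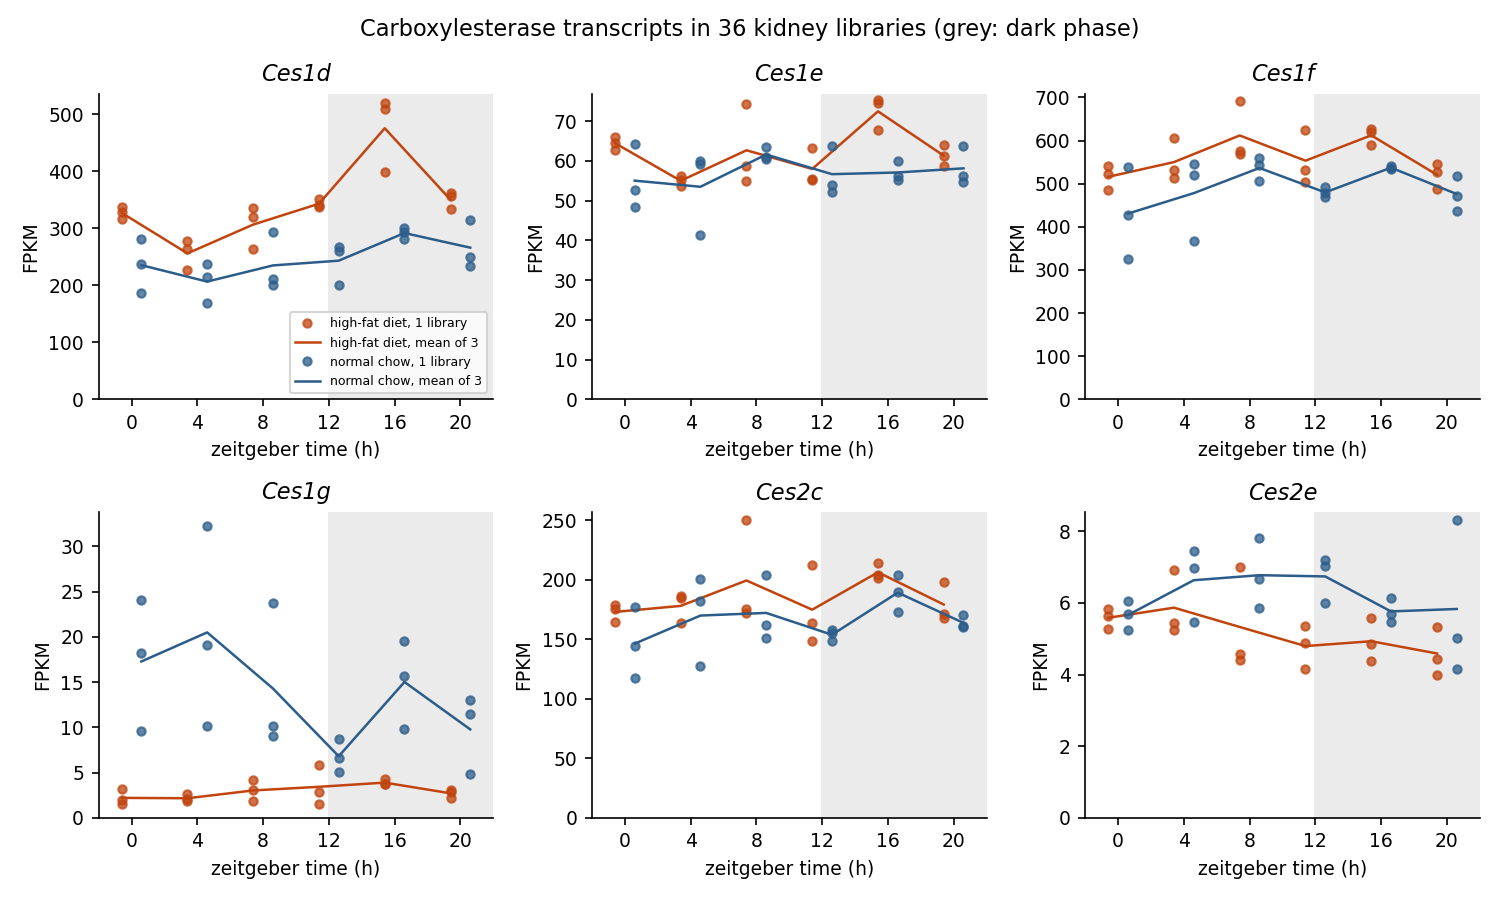
FPKM of the 6 genes in each of the 36 libraries (points) by zeitgeber time in hours, with the mean of 3 libraries as a line, high-fat libraries drawn just left of chow libraries of the same time. Ces1g lies near the axis under the high-fat diet and between 4.87 and 32.3 FPKM under normal chow, and Ces1d reaches its highest values in the 3 high-fat libraries of ZT16.

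Ces1d differed the other way. High-fat values were 328, 316 and 336 FPKM at ZT0, 264, 277 and 226 FPKM at ZT4 and 321, 336 and 263 FPKM at ZT8. From lights off they were 352, 340 and 337 FPKM at ZT12, 508, 519 and 399 FPKM at ZT16 and 333, 356 and 362 FPKM at ZT20. All 3 libraries of ZT16 exceeded every other high-fat library. Chow values were 282, 187 and 237 FPKM at ZT0, 237, 168 and 215 FPKM at ZT4 and 201, 210 and 293 FPKM at ZT8. Later in the day chow gave 201, 268 and 261 FPKM at ZT12, 281, 300.2 and 293 FPKM at ZT16 and 315, 234 and 249 FPKM at ZT20. High-fat and chow ranges overlapped over the whole day, while 14 of 18 high-fat libraries lay above every chow library, as for 0.305% of genes. All high-fat libraries exceeded all chow libraries at 4 of 6 times (1.4% of genes), the overlaps being at ZT4 and ZT8. As for Ces1g, these shares use the values that chose the gene and show nothing further about it. The averaged difference was 0.47 ± 0.06 log2 (SE), or 1.38-fold higher under the high-fat diet, and it ran from 0.32 ± 0.15 at ZT4 to 0.69 ± 0.15 at ZT16.

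The other members differed by less. Ces1f was higher by 0.20 ± 0.05 log2 (SE) under the high-fat diet, with a range of 485 to 691 FPKM under the high-fat diet and of 326 to 561 FPKM under normal chow. Ces2c was higher by 0.16 ± 0.06 (148 to 250.1 FPKM under the high-fat diet and 118 to 204 FPKM under normal chow) and Ces1e by 0.13 ± 0.05 (53.7 to 75.2 FPKM under the high-fat diet and 41.2 to 64.2 FPKM under normal chow). Ces2e was lower by 0.24 ± 0.07 log2 (SE) in the high-fat group, where it ranged from 4.00 to 6.99 FPKM, against 4.16 to 8.32 FPKM under normal chow. The sign was the same at 6 of 6 times for each of these genes, although the estimate of Ces1e at ZT8 was only 0.01 ± 0.12 and that of Ces2e at ZT0 -0.02 ± 0.18. Whether a single Cuffnorm run scaled the libraries of both diets is not given in the sources used here. Over 9689 genes at 1 FPKM or more in every library, the mean of the libraries' median log2 ratios to the gene mean was -0.01 for the high-fat diet and 0.02 for normal chow.

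**Figure D3:**
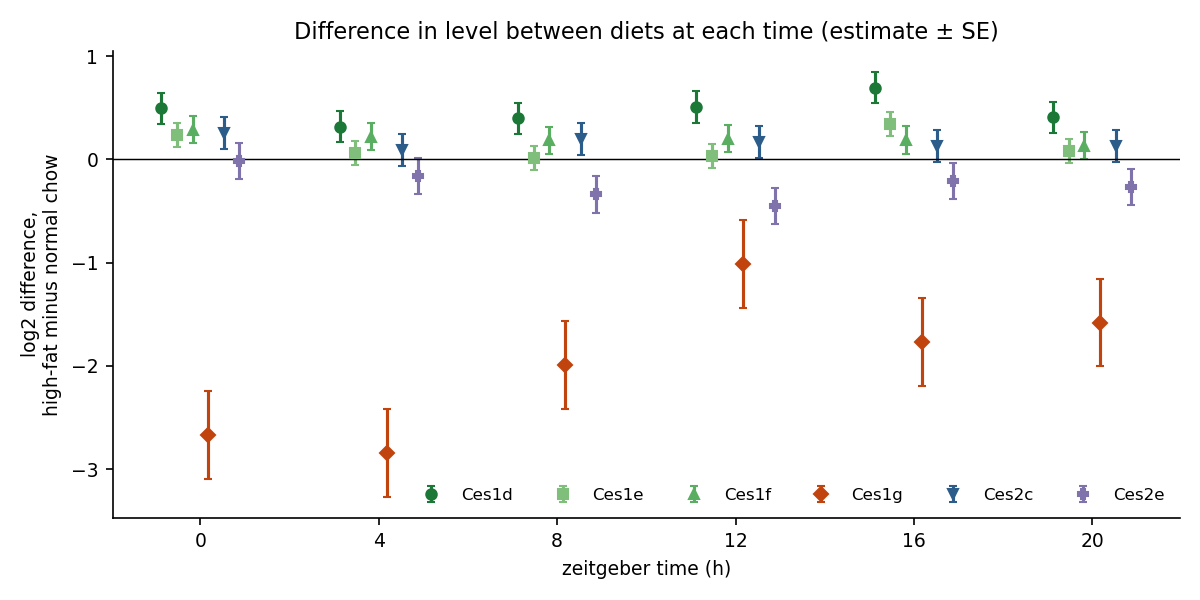
Estimated log2 difference of the high-fat diet minus normal chow for the 6 genes at each zeitgeber time in hours (points, with SE as bars, 3 libraries per diet and time). Ces1g lies between -2.84 and -1.01, Ces1d between 0.32 and 0.69, and the remaining genes between -0.45 (Ces2e at ZT12) and 0.34 (Ces1e at ZT16).

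Time of day was tested within each diet with a cosine and a sine of 24 h. Under the high-fat diet Ces1d was the 1 member of 6 that passed, beside 7.3% of all 11144 genes (limma F test, Benjamini-Hochberg adjusted p = 0.00143, n = 18). Its fitted peak lay at 16.4 ± 0.598 h (SE) with a peak-to-trough difference of 0.68 ± 0.11 log2, or 1.61-fold. Group means were 327 ± 10.1 FPKM at ZT0, 256 ± 26.4 at ZT4, 306 ± 38.6 at ZT8, 343 ± 7.80 at ZT12, 475 ± 66.4 at ZT16 and 350.1 ± 15.2 FPKM at ZT20 (SD, n = 3 each), so the lowest mean was in the light phase and the highest in darkness. The adjusted p stayed between 0.000168 and 0.00614 over 12 other settings and between 0.00135 and 0.00471 without any single library.

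Under normal chow 0 of 6 members passed, beside 7.77% of all genes (limma F test). By the same cosine fit 0 of 6 passed under both diets (3.49% of all genes). With time as a factor 0 of 6 passed under normal chow (3.37%). In the cosine fit under normal chow Ces1d had a fitted peak at 16.7 ± 1.24 h (SE). Its peak-to-trough difference was 0.43 ± 0.14 log2, or 1.35-fold. The limma F test of this fit gave an unadjusted p of 0.0215 and an adjusted p of 0.135 (n = 18). With time as a factor the adjusted p of Ces1d was 0.468 (limma F test). Its chow means were 206 ± 34.8 FPKM at ZT4 and 292 ± 9.52 FPKM at ZT16 (SD, n = 3 each). The test of the difference between the rhythms of Ces1d did not pass (limma, adjusted p = 1.00), which does not show that they were alike.

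Ces1g had no rhythm that passed with the high-fat diet (adjusted p = 0.235 by limma) or with normal chow (adjusted p = 0.374 by limma). Fitted peaks were 14.2 ± 1.43 h under the high-fat diet and 2.17 ± 1.796 h under normal chow (SE), and from peak to trough Ces1g differed by 0.67 ± 0.25 log2 under the high-fat diet and by 0.90 ± 0.42 log2 under normal chow. Under the high-fat diet the group means ran from 2.16 ± 0.406 FPKM at ZT4 to 3.89 ± 0.332 FPKM at ZT16, and the chow means from 20.5 ± 11.1 FPKM at ZT4 to 6.81 ± 1.82 FPKM at ZT12 (SD, n = 3 each). The test of a difference in rhythm gave an unadjusted limma p of 0.0157 and an adjusted p of 1.00. Among the members 0 of 6 passed that test after adjustment and 1 of 6, Ces1g, had an unadjusted p under 0.05, against 0.0269% and 3.17% of all genes.

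The daily course of Ces1e, Ces1f, Ces2c and Ces2e did not pass under either diet. Adjusted limma p-values lay between 0.335 and 0.8004 under the high-fat diet and between 0.374 and 0.848 under normal chow. Peak-to-trough differences ran from 0.12 to 0.28 log2 under the high-fat diet and from 0.10 to 0.30 log2 under normal chow. With time as a factor Ces1e also passed in the high-fat group (adjusted p = 0.0394 by limma), so that 2 of 6 members did, beside 28.4% of all genes. The 4 highest high-fat libraries of Ces1e were those of ZT16, at 67.7, 74.4 and 75.2 FPKM, and 1 of ZT8 at 74.4 FPKM.

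Across the 12 group means of both diets, Ces1f resembled Ces2c (Pearson r = 0.92) and Ces1d resembled Ces1e (r = 0.82). Ces1d and Ces2e ran opposite (r = -0.82). These correlations over 12 points share libraries and depth and are descriptions. Each r mixes the diet difference, by which the members were chosen, with time of day. It does not show a shared daily course. Among other genes averaging 5 FPKM or more, the closest to Ces1d were Atg3, an enzyme of autophagosome formation (r = 0.95), 4833439L19Rik (0.94) and Ptges3 (0.91). For Ces1f they were Pipox, a peroxisomal sarcosine oxidase (r = 0.97), Ugt3a2 (0.95) and the amino acid transporter Slc6a20b (0.94). For Ces1g they were Gcat, an enzyme of threonine breakdown (r = 0.95), Tti1 (0.94) and the phosphatase Dusp14 (0.93). Those of Ces2c were Cript (r = 0.94), Glb1l2 (0.93) and the phosphate transporter Slc17a1 (0.92), those of Ces1e were glutamate dehydrogenase Glud1 (0.91), the succinate receptor Sucnr1 (0.90) and Cwh43 (0.89), and those of Ces2e were AI854703 (0.94), Zfyve21 (0.92) and Qprt (0.92), an enzyme of NAD synthesis.

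A pair of chow libraries held the lowest values of the abundant members. The family sum was 762 FPKM in ZT0 replicate 4 and 812 FPKM in ZT4 replicate 3, against 950.0 to 1194 FPKM in the other 16 chow libraries. Ces1f stood at 326 and 367 FPKM there, Ces2c at 118 and 127 FPKM, Ces1d at 187 and 168 FPKM and Ces1e at 48.3 and 41.2 FPKM, in each case the lowest 2 of the 18 chow libraries. Ces1g was at its highest 2 chow values in the same libraries, 24.04 and 32.3 FPKM. Summed proximal tubule markers were 3416 and 3192 FPKM in them, the fifth and the second lowest under normal chow. That sum was mostly Slc34a1, at 2249 and 2076 FPKM. Slc22a6 (236.6 and 249.5 FPKM) and Slc7a13 (157 and 172 FPKM) were also at their lowest 2 chow values there, while Lrp2 (79.2 and 59.0 FPKM) was not. The part of the 2 libraries in the diet differences was measured by leaving each out. Ces1d then differed by 0.44 and 0.45 log2 and Ces1g by -1.93 and -1.91 log2. Ces1f then differed by 0.17 and 0.17 log2, Ces2c by 0.14 and 0.13, Ces1e by 0.11 and 0.10 and Ces2e by -0.25 and -0.26. The 2 libraries were not left out together.

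Transcripts of other tissues varied between libraries. For the counts of markers below, 5.25% of all genes tested were higher and 11.4% lower under the high-fat diet. All 12 proximal tubule markers were detected, with a summed level of 3299 to 3891 FPKM under the high-fat diet and 3128 to 4149 FPKM under normal chow, 1 higher and 4 lower among the 12 (median log2 difference -0.02), led by the sugar transporter Slc5a10 (1.00 ± 0.08) and the endocytic receptor Cubn (-0.36 ± 0.05). Of 14 tested adipocyte markers 11 were lower and 1, Lep, was higher, and the summed level of all 15 ran from 108 to 1009 FPKM (median 356) under the high-fat diet and from 247 to 3398 FPKM (median 1016) under normal chow. Adrenal transcripts reached a sum of 4.67 FPKM under the high-fat diet and 3856 FPKM under normal chow, with Cyp21a1 above 10 FPKM in 4 chow libraries, and 1 of 6 tested adrenal genes was lower. Of the remaining marker lists, 2 of 4 genes of loop and distal tubule and 1 of 4 of the collecting duct were lower, 1 of 5 macrophage genes was higher, and 0 of 3 podocyte and 0 of 5 hepatocyte genes passed (0 and 1 at an unadjusted limma p under 0.05). Relative depth, estimated from the smallest steps of 1630 rarely detected genes, ran from 0.3245 to 1.36 under the high-fat diet and from 0.388 to 1.39 under normal chow, and absolute depth is unknown.

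Adipocytes are known to express Ces1d and Ces1f, and the adipocyte markers moved with diet, so their values are set beside the members. Within each diet of 18 libraries no relation of a member's level to the adipocyte score, the mean log2(FPKM + 0.5) of the 15 markers, passed a two-sided permutation test. For Ces1d Pearson's r was -0.02 under the high-fat diet and 0.03 under normal chow, and Spearman's rho -0.14 and 0.08 (permutation p = 0.926, 0.906, 0.59 and 0.766). For Ces1g r was 0.14 and -0.07, and rho 0.11 and -0.08 (permutation p = 0.585, 0.771, 0.661 and 0.764). Over all 12 relations the adjusted permutation p was 0.926 for every r and 0.766 for every rho. Without the 2 libraries farthest from the median score r was 0.04 and 0.12 for Ces1d and 0.11 and -0.18 for Ces1g. The 2 high-fat libraries nearly free of adipocyte RNA, with the fat hormone Adipoq at 0.0852 FPKM in ZT12 replicate 5 and 0.0963 FPKM in ZT20 replicate 4, held Ces1d at 337 and 362 FPKM and Ces1g at 2.88 and 2.18 FPKM. With the score as a covariate the diet difference was 0.50 ± 0.08 log2 for Ces1d and -2.03 ± 0.23 for Ces1g (SE), and without the 4 libraries with adrenal transcripts it was 0.46 ± 0.07 and -2.09 ± 0.17.

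**Figure D4:**
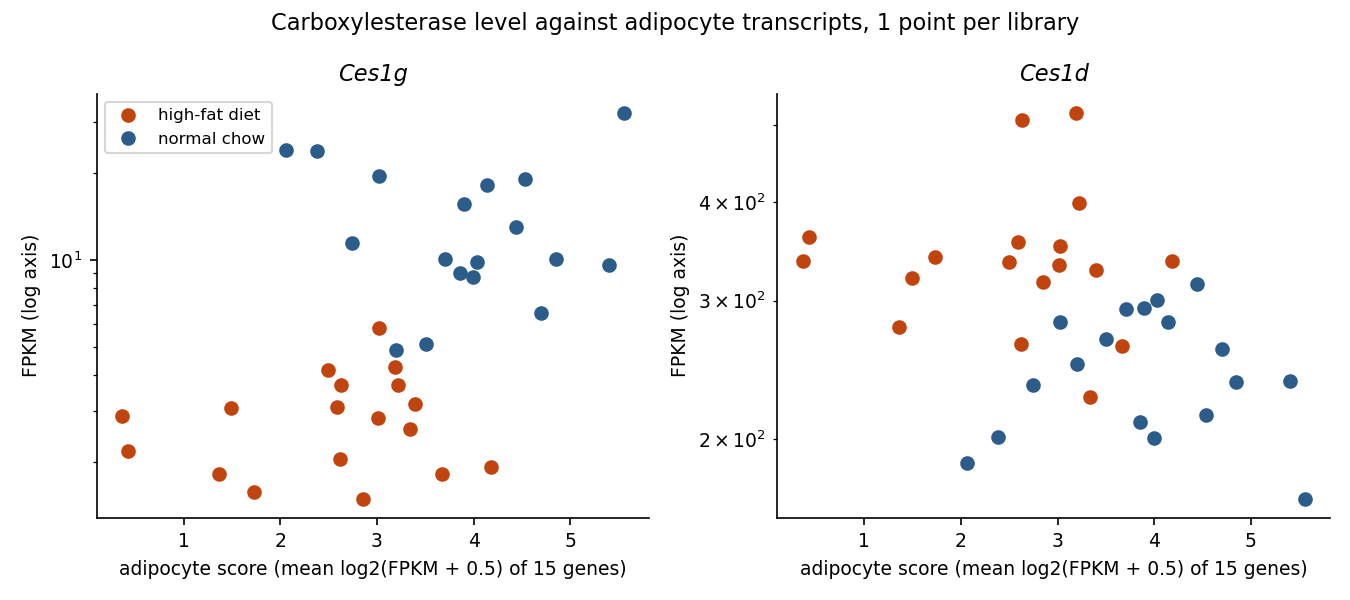
FPKM (log axis) of Ces1g and Ces1d in each library against its adipocyte score, the mean log2(FPKM + 0.5) of 15 adipocyte genes, with high-fat and chow libraries in different colours. Scores run lower under the high-fat diet, and within a diet Pearson's r lies between -0.07 and 0.14.

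The rest of the family was scarce apart from a pseudogene. Of 13 further rows 4 reached a mean of 1 FPKM, all in the Ces2 cluster. In the limma comparison of diets 2 of these 4 were higher and 1 lower, where 5.25% and 11.4% of all genes were, and their median log2 difference was -0.04, against -0.03 over all genes. Ces2b fell to 3.19 ± 1.14 FPKM under the high-fat diet, against 4.91 ± 1.02 FPKM under normal chow (SD, n = 18 each; log2 difference -0.58 ± 0.11 SE, limma adjusted p = 0.000378). With the adipocyte score as a covariate 0 of the 4 were lower. Ces2g rose to 2.46 ± 0.473 FPKM, against 1.86 ± 0.337 FPKM (0.33 ± 0.06, adjusted p = 0.000598). Ces2d-ps, an unprocessed pseudogene, stood at 81.2 ± 10.6 FPKM under the high-fat diet and 72.5 ± 8.75 FPKM under normal chow (0.16 ± 0.06, adjusted p = 0.0432), a call that was lost in 22 of 36 fits without a single library (adjusted p from 0.0170 to 0.0750). Ces2h did not pass (-0.23 ± 0.10, adjusted p = 0.0986).

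Reads can be shared within the family, which bears on Ces2c above all. Of the 50-base stretches of its longest transcript, 42.2% also occur in transcripts of another gene, most often Ces2d-ps with 734 of 1921. The share was 1.28% for Ces1d, 3.21% for Ces1e, 1.60% for Ces1f, 1.67% for Ces1g and 3.36% for Ces2e. Transcripts of Ces2c and Ces2e were 81.5% identical over 1938 aligned bases, and Ces1g was 72.6 to 78.2% identical to the other members of the Ces1 type. How shared reads were assigned is not given in the sources used here, so the values of Ces2c and Ces2d-ps are uncertain against each other.

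Carboxylesterases known from liver and blood plasma were highest in a single library. In the chow library ZT0 replicate 1, Ces1c was at 2.32 FPKM, with 0.403 FPKM as the highest value elsewhere, and Ces3a at 1.16 FPKM, with 0.339 FPKM elsewhere. Ces1b (0.0827 FPKM) and Ces2a (0.132 FPKM) also peaked there. Albumin, Alb, stood at 39.6 FPKM in this library, against at most 7.82 FPKM in any other, and the liver transaminase Tat at 0.501 FPKM. The other 4 hepatocyte markers, Apob (4.53 FPKM), Cyp2e1 (1342 FPKM), Serpina1a (14.03 FPKM) and Serpina1c (11.7 FPKM), were within the range of the other chow libraries. Among the members, Ces1e had its highest chow value there (64.2 FPKM), while Ces1g at 18.2 FPKM was within the range of the other chow libraries. Without that library the diet difference was -1.96 ± 0.18 log2 (SE) for Ces1g and 0.49 ± 0.06 for Ces1d. Ces1a, Ces2f, Ces3b, Ces4a and Ces5a had means of at most 0.0204 FPKM under either diet, and Ces5a was listed at 0 in all 18 high-fat libraries.

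Other genes of ester and lipid turnover gave a mixed picture in the limma comparison of diets, where 5.25% of all genes rose and 11.4% fell. Of 21 tested hydrolases of neutral lipids and esters 3 rose and 8 fell, with a median of -0.08 log2. Lpl, which clears circulating triglyceride, fell to 120.3 FPKM under the high-fat diet, against 246 FPKM under normal chow (-1.05 ± 0.10 SE, adjusted p = 8.79e-09), and the monoglyceride lipase Mgll by 0.40 ± 0.08. Faah, which degrades fatty acid amides, and the paraoxonase Pon2 rose by 0.43 ± 0.05 and 0.33 ± 0.07. Of 12 genes of triglyceride and sterol ester synthesis 2 rose and 4 fell (median -0.04). The risers were the monoacylglycerol acyltransferases Mogat2, at 22.5 FPKM under the high-fat diet against 10.97 FPKM under normal chow (1.03 ± 0.10, adjusted p = 1.39e-08), and Mogat1, at 172 against 119 FPKM (0.56 ± 0.07). Agpat2 and Lpin3, enzymes of the same pathway, fell by 0.60 ± 0.14 and 0.28 ± 0.07. Lpl, Agpat2 and Mgll are also expressed by adipocytes, whose markers were lower under the high-fat diet, and their part in these falls was not tested.

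Of 12 genes of retinoid metabolism 1 rose and 3 fell (median -0.06 log2), where 5.25% and 11.4% of all genes did. Rdh10, a retinol dehydrogenase, rose by 0.26 ± 0.08 (SE), and among those that fell were the carotene-cleaving Bco1, by 0.63 ± 0.08, and the plasma retinol carrier Rbp4, by 1.76 ± 0.31. Adipocytes also express Rbp4, and their part in its fall was not tested. Among 19 nuclear receptors and other factors tied to carboxylesterase genes 3 rose and 2 fell (median -0.08), beside the same shares of all genes. Nr1i2, the xenobiotic receptor PXR, stood at 1.99 FPKM under the high-fat diet and 2.95 FPKM under normal chow (-0.44 ± 0.08, limma adjusted p = 0.000228), and Ppard fell by 0.44 ± 0.08. Ppara, a receptor for fatty acids, rose by 0.28 ± 0.07 and Hlf, one of the factors that bind the D-box, by 0.22 ± 0.06. Of these 19 factors 7 were rhythmic under the high-fat diet and 5 under normal chow, where 7.3% and 7.77% of all genes were, and the list includes the clock output factors Dbp, Tef and Hlf.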

How the data were processed

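RNA of 36 kidney samples was sequenced, and the authors deposited FPKM values, 1 table per diet with 24883 rows each. Per the submitters' processing notes, the tools were Cuffnorm, Bowtie and CASAVA 1.8.2, on build mm10. The labels' protocols name TRIzol extraction and TruSeq RNA v2 preparation. Groups, times and replicate numbers were read from the titles, although a label tag mentions ZT3, a time at which no kidney was collected. Rows whose symbol occurs more than once (817 rows) were left out.

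From these values, log2(FPKM + 0.5) was fitted with limma 3.58.1 in R 4.3.3, with a mean-variance trend, on 11144 genes averaging 1 FPKM or more. All 6 members passed this filter. The pseudocount understates changes of low genes. Levels were compared between the means of the 6 groups per diet, and p-values were adjusted over all genes by Benjamini-Hochberg with a threshold of 0.05. Permutation tests were two-sided with 100000 resamples. The fits were also run on simulated data with independent noise for each gene and library, which lack effects shared by the genes of a library. The planted diet differences were larger than those of all members but Ces1g, so that run does not cover smaller ones. Members, gene lists and alternatives were chosen with earlier results of these data known. Named were the members, the other family rows, up to 4 genes per list by p and 3 genes per member by likeness. A gene that this rule picks is not reported here. The labels number replicates without naming animals, so p-values measure the spread between these samples, which may be technical. FPKM hold no counts, so no interval for counting error is given.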

Additional observations from a re-analysis of the deposited data

How the results depend on the processing

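The diet differences of the 6 members kept their sign in each of 47 other fits. Each moved by no more than the SD between single libraries of a group, a wider measure than the SE of the difference. Across them Ces1g lay between -2.13 and -1.83 log2 and Ces1d between 0.44 and 0.50. Some smaller differences were not large beside their SE. Without the libraries with adrenal transcripts Ces1e differed by 0.09 ± 0.05 log2 and Ces2c by 0.12 ± 0.07. With the adipocyte score as covariate Ces1e differed by 0.10 ± 0.06 log2. Ces2e then differed by -0.35 ± 0.09, against -0.24 ± 0.07 in the main fit, a shift larger than that SE. The count of members rhythmic under the high-fat diet was 2 with time as a factor, where Ces1e passed, and 1 to 2 without single libraries, the second being Ces1g (adjusted p = 0.0436) without the high-fat ZT12 replicate 4. Of the other carboxylesterases the number higher was 1 when no low genes were removed and 1 to 2 without single libraries. The number lower was 0 with the adipocyte score as covariate and 2 when no low genes were removed. It was also 2 without the libraries with adrenal transcripts. After removal of the trend over transcript GC content with the replicate block it was 2, and without single libraries 1 to 2. The cause of these shifts was not tested. Among genes averaging 5 FPKM or more, 1 was higher and 0 lower. That filter left out Ces2b, at 3.19 FPKM under the high-fat diet and 4.91 FPKM under normal chow. It also left out Ces2g, at 2.46 and 1.86 FPKM, and Ces2h, at 0.933 and 1.19 FPKM, so these counts follow from the filter. Removal of the GC trend, alone and with the block, was added after the data were seen.

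Replicate numbers are shared between groups. Between libraries of the same number, deviations from group means had a median correlation of 0.04 (range -0.61 to 0.48, 119 pairs). For different numbers it was -0.004 (range -0.59 to 0.59, 475 pairs). Pairs within and between diets were pooled, and the difference was not tested. With the replicate block Ces1g differed by -2.01 and Ces1d by 0.47 log2, and no member's call changed. Absolute depth is unknown, so no counting error can be given for low values such as those of Ces1g under the high-fat diet.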
